A study of Mus musculus with 9 samples.

Results

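The genes described here are 10 members of the MHC class I antigen presentation pathway, taken as a named list and not by their measured values. B2m, H2-K1 and H2-D1 make up the surface complex, Tap1, Tap2 and Tapbp carry and load peptides, Psmb8, Psmb9 and Psmb10 are immunoproteasome subunits, and Nlrc5 is a transcriptional regulator. All 10 had a value in both of the authors' deposited tables, among 18971 genes for JICD1 and 19287 genes for NICD1. The tables compare cultured brain astrocytes of the mouse, all from an Ink4a-/- background, by RNA sequencing. One group had received the pcDNA HA-JICD1 puro vector, which carries the HA-tagged intracellular domain of Jagged1, a Notch ligand. Another had received the pcDNA NICD puro vector, which carries the intracellular domain of the receptor Notch1, and the control had received pcDNA puro alone. Each group had 3 libraries, which makes 9, and the loss of Ink4a was shared by the transfected groups and the control. The labels do not say whether libraries came from separate cultures, whether a group was 1 clone, how long after transfection RNA was taken, or the age of the animals.

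Each deposited table gives 1 log2 ratio of transfected over control per gene and 1 score between 0 and 1. They hold no value per library, so no ratio here has a replicate error, a standard error or a p-value, and depth is unknown. The words higher and lower therefore describe the sign of a deposited ratio and carry no test. The authors named the score Probability. No source used here says how it was computed, and it was not read as a p-value. A gene is called scored here when its score was 0.8 or more. Both tables use the same control libraries, so their values share that control's error. Jag1 had a log2 ratio of -1.39 in libraries labelled JICD1 and of 1.36 in libraries labelled NICD1 in the authors' deposited tables. Notch1 had 1.33 in libraries labelled JICD1 and 1.77 in libraries labelled NICD1 in the authors' deposited tables. Jag1 was thus lower than control under the label of its own construct and higher under the other, and Notch1 was higher under both. Whether reads from the vectors were counted to those genes is not given, so these ratios do not check the labels.

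MHC class I molecules display peptides from proteins made inside the cell to CD8 T cells and natural killer cells. The proteasome cuts the proteins, TAP pumps the peptides into the endoplasmic reticulum, and tapasin and chaperones help to place them in the groove of a heavy chain paired with beta-2 microglobulin. Interferon gamma raises most of these genes, swaps 3 catalytic proteasome subunits for induced ones, and acts in part through NLRC5, which joins a protein complex on class I promoters. Astrocytes of the resting brain show little MHC class I, and inflammation raises it.

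Promoter sequences are shown first, and whether they bear on the ratios given below was not tested. RefSeq windows on GRCm38.p6 were found for 8 of the 10 genes, the exceptions being Tap2 and Nlrc5, and the 250 bases before each start were used. The windows printed below are those of the 3 chain genes, of Tap1, whose window it shares with Psmb9, and of Psmb8, which had the highest ratio of the 10 in both tables. Capitals mark matches, on either strand, to letters that regulators of this pathway are known to prefer. Where TGACG and ATTGG stand as the spaced pair described next, other single copies of either, such as CCAAT in H2-D1, are left in lower case. The B2m window lies at chr2:122147437-122147686 on the plus strand, H2-K1 at chr17:34000348-34000597 on the minus strand, and H2-D1 at chr17:35262844-35263093 on the plus strand. The Tap1 window lies at chr17:34187306-34187555 and the Psmb8 window at chr17:34197945-34198194, both on the plus strand.
B2m: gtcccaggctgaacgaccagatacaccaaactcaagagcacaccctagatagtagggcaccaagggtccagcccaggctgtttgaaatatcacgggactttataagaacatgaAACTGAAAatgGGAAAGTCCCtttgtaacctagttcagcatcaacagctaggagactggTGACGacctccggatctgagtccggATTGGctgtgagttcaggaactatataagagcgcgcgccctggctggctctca
H2-K1: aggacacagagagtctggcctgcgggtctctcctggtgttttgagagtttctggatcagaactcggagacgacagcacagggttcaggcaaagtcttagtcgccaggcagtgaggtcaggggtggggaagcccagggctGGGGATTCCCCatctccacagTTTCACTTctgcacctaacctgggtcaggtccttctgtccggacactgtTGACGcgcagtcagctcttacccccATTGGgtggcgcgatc
H2-D1: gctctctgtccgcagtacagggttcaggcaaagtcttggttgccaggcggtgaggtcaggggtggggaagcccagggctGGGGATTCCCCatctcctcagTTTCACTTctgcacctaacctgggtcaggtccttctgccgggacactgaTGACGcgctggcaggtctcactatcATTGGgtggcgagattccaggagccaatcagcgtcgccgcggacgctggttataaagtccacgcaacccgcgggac
Tap1: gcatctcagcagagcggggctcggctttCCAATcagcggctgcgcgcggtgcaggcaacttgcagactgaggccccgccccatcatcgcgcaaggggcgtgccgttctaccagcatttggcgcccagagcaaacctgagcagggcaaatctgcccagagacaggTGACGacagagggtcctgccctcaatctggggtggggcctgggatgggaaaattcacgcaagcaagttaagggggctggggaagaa
Psmb8: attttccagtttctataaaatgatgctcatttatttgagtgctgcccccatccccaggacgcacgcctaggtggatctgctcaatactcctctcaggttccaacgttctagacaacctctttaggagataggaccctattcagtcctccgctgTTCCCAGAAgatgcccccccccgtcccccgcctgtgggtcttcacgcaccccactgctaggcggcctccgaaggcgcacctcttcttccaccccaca

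The 3 chain promoters shared an arrangement that the other 5 windows lacked. In B2m, H2-K1 and H2-D1, TGACG was followed on the same strand by ATTGG with 20 bases between them. These letters are the cores of the X2 and Y boxes, the elements of class I promoters at which the NLRC5 complex assembles. The pair, searched on both strands with 10 to 30 bases between its parts, was present in 211 of 32851 windows, or 0.642%. TGACG began 78 bases before the start in B2m, 41 bases before it in H2-K1 and 101 bases before it in H2-D1. The printed H2-K1 window belongs to 1 of its annotated starts, and TGACG began 55 bases before another. The letters alone are common, since TGACG was in 17.8% of windows and in 5 of the 8, and ATTGG was in 33.8% of windows and in 6 of the 8. In both counts the Tap1 and Psmb9 matches are the same site, read on opposite strands of the stretch that their windows share. AANNGAAA, the core bound by the interferon regulatory factors, was found on either strand in the 3 chain windows alone of the 8 and in 21.3% of all windows. The NF-kB consensus was found in those 3 as well, and in 7.25% of all windows. TTCNNNGAA, the core bound by STAT factors, was found in Psmb8 alone of the 8 and in 7.02% of all windows. These motifs overlapped one another in none of the 5 printed windows, apart from 2 NF-kB matches that overlap by all but 1 base in H2-K1 and in H2-D1. The motifs were chosen after these sequences had been read, and a match describes letters and not binding.

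The windows also show how closely some of these genes are related or placed. The H2-K1 and H2-D1 windows were identical at 166 of 190 aligned bases, or 87.4%. Tap1 and Psmb9 are read in opposite directions from starts that lie 226 bases apart, and their windows share the 225 bases between those starts. Each gene's start is thus upstream sequence of the other.

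Across the 10 genes, values were uneven rather than raised or lowered as a block. With JICD1, 8 of the 10 log2 ratios in the authors' deposited table lay above 0 and 2 below, beside 54.5% of all genes above 0. Their median was 0.25, against 0.05 for all genes. The deposited NICD1 table of the authors had 7 above 0 and 3 below, beside 48.5% of all genes above 0. The median of the 10 was 0.24 there, against -0.02 for all genes. Ratios of 1 or more were held by 3 of the 10 in libraries labelled JICD1, namely Tap1, Psmb8 and Nlrc5, beside 14.5% of all genes. Psmb10 alone was at -1 or less there, beside 14.4% of all genes. In libraries labelled NICD1, 3 of the 10 were at 1 or more, namely Tap2, Psmb8 and Psmb9, beside 16.6% of all genes, and Nlrc5 alone was at -1 or less, beside 12.1%. None of the 10 was scored in the JICD1 table, where 1.07% of genes were scored higher and 1.74% scored lower. Psmb8 was the only scored member in the NICD1 table, on the higher side, where 1.64% of genes were scored higher and 0.97% lower.

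**Figure D1:**
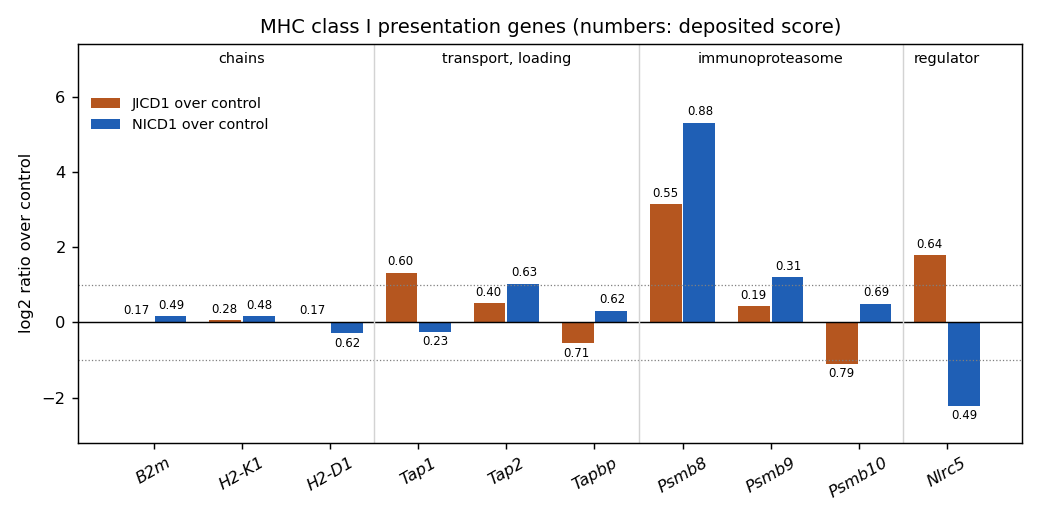
Log2 ratio over control of the 10 class I presentation genes, in the authors' deposited tables, with JICD1 in orange and NICD1 in blue. Each bar is 1 deposited value with no error bar, the number at each bar is its deposited score, and dotted lines mark log2 ratios of 1 and -1. The chain genes stay between -0.29 and 0.16, Psmb8 stands highest at 3.14 and 5.31, and Nlrc5 points in opposite directions at 1.79 and -2.21.

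The genes of the surface complex had ratios near 0 with both constructs. B2m encodes beta-2 microglobulin, the light chain that every class I molecule needs. Its deposited log2 ratio in the authors' tables was 0.011 in libraries labelled JICD1, a 1.01-fold higher level than control, and 0.16 in libraries labelled NICD1, 1.12-fold higher. H2-K1, a classical heavy chain, had deposited log2 ratios of 0.057 and 0.16 in the authors' JICD1 and NICD1 tables, or 1.04-fold and 1.12-fold higher. H2-D1, the other classical heavy chain here, had 0.011 in the authors' deposited JICD1 table, or 1.01-fold higher, and -0.29 in the deposited NICD1 table, or 1.23-fold lower. All 6 values lay within 0.3 of 0 on the log2 scale. The JICD1 values are small enough that centring decides their sign. After subtraction of the median of all genes, B2m and H2-D1 came to -0.035 each, and after subtraction of the median of chromosome 17, H2-K1 came to -0.012.

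Scores of the chain genes were high for ratios of that size. The B2m scores were 0.17 and 0.49 in the authors' deposited JICD1 and NICD1 tables, above those of 98% and 97.3% of the 300 genes with the nearest absolute ratio. H2-K1 scored 0.28 and 0.48 in the authors' deposited tables, above 96.3% and 89.7% of such genes. H2-D1 scored 0.17 and 0.62 in the authors' deposited tables, above 96.3% and 97.7%. What makes a score high at a given ratio is not given, so this is a position within the tables and not a level. Heavy chain genes resemble one another, and 13.9% of the 50-base words of H2-D1 transcripts and 6.87% of those of H2-K1 also occur in transcripts of other genes. These were 168 other genes for H2-D1 and 25 for H2-K1, and the share due to heavy chain genes as a whole was not counted. The gene with the most shared words was H2-Q1 for H2-D1, at 6.68%, and H2-D1 for H2-K1, at 5.43%. How the authors assigned such reads is not given, so the heavy chain ratios are uncertain in a way that the B2m ratio, at 0% shared words, is not.

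Peptide transport and loading split by gene and by construct. TAP1 and TAP2 form the transporter that moves peptides into the endoplasmic reticulum as a pair. Tap1 had a deposited log2 ratio of 1.31 in the authors' JICD1 table, 2.48-fold higher with a score of 0.60, and -0.25 in their NICD1 table, 1.19-fold lower with a score of 0.23. Tap2 had 0.51 in the authors' deposited JICD1 table, 1.42-fold higher with a score of 0.40, and 1.03 in the deposited NICD1 table, 2.04-fold higher with a score of 0.63. The member of the pair with the larger ratio was thus Tap1 with JICD1 and Tap2 with NICD1. Tapbp encodes tapasin, the chaperone that bridges the transporter and the empty heavy chain. Its deposited log2 ratio was -0.56 in the authors' JICD1 table, 1.48-fold lower with a score of 0.71, and 0.31 in their NICD1 table, 1.24-fold higher with a score of 0.62.

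The 3 immunoproteasome genes spanned a wide range of ratios, with Psmb8 the highest of the 10 genes in both tables. Psmb8 encodes LMP7, the induced subunit that takes the place of the product of Psmb5. It had a deposited log2 ratio of 3.14 in the authors' JICD1 table, 8.84-fold higher, above the ratios of 97.2% of all genes, with a score of 0.55. In libraries labelled NICD1 its ratio in the authors' deposited table was 5.31, 39.6-fold higher, above 99.0% of all genes, with a score of 0.88. The ratio and the score were both higher with NICD1, a difference that has no test. Psmb9 encodes LMP2, which replaces the product of Psmb6. Its deposited log2 ratios in the authors' tables were 0.43 with JICD1, 1.35-fold higher with a score of 0.19, and 1.19 with NICD1, 2.29-fold higher with a score of 0.31. Its scores were above those of 16.3% and 49% of the 300 genes with the nearest absolute ratio. Psmb10 encodes MECL-1, which replaces the product of Psmb7. With JICD1 it had a log2 ratio of -1.10 in the authors' deposited table, 2.15-fold lower, and its score of 0.795 was just under 0.8. Its deposited ratio in the authors' NICD1 table was 0.49, 1.41-fold higher, with a score of 0.69. The 3 induced subunits thus lay on both sides of 0 with JICD1 and all above 0 with NICD1.

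The constitutive subunits that they replace stayed near 0. Psmb5, Psmb6 and Psmb7 had deposited log2 ratios of -0.0070, 0.022 and 0.087 in the authors' JICD1 table, and of -0.062, 0.039 and 0.17 in their NICD1 table. The difference of induced minus replaced subunit was 3.15 with JICD1 and 5.37 with NICD1 for Psmb8 and Psmb5. It was 0.41 with JICD1 and 1.15 with NICD1 for Psmb9 and Psmb6. For Psmb10 and Psmb7 it was -1.19 with JICD1 and 0.32 with NICD1. Of the other 11 subunits of the 20S core, the barrel of the proteasome, 7 lay above 0 and 4 below in the authors' deposited JICD1 table, with a median of 0.08. All 11 lay above 0 in the authors' deposited NICD1 table, between 0.13 and 0.47, with a median of 0.25. The highest scores of these subunits in either table were those of Psmb4 and Psma5. Psmb4 had log2 ratios of 0.79 and 0.25 with scores of 0.77 and 0.58 in the authors' deposited JICD1 and NICD1 tables. Psma5 had log2 ratios of 0.78 and 0.35 with scores of 0.75 and 0.62 in the authors' deposited tables. Psme1 and Psme2 encode PA28 alpha and beta, the interferon-induced cap of the proteasome. In the authors' deposited tables Psme1 had -0.85 with JICD1 and 0.49 with NICD1, and Psme2 had -0.93 with JICD1 and 0.31 with NICD1. Among all 10 activator and assembly genes, median log2 ratios were 0.15 with JICD1 and 0.04 with NICD1, with 6 and 5 genes above 0. The NICD1 median was 0.15 without the 1 gene that had a group inferred at a common floor.

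**Figure D2:**
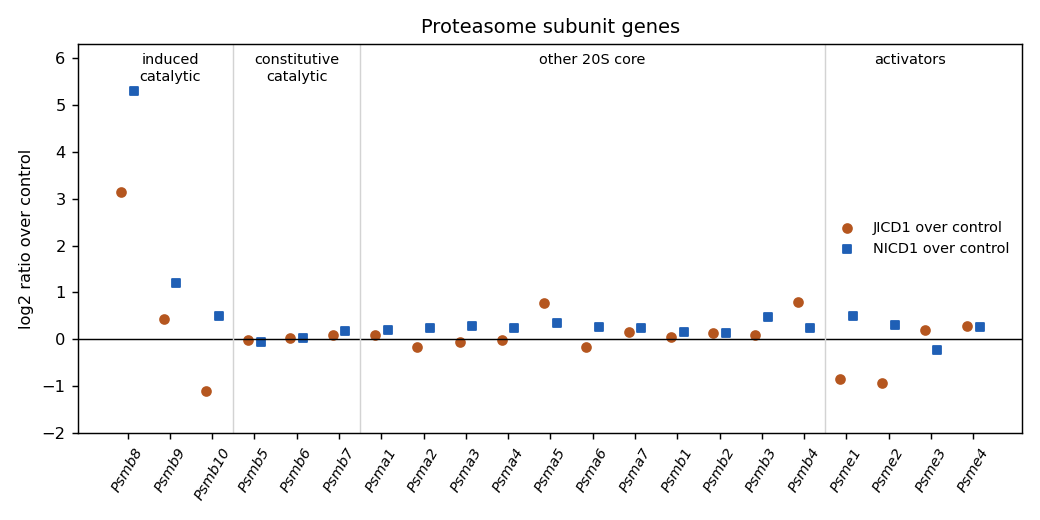
Log2 ratio over control of proteasome subunit genes in the authors' deposited tables, JICD1 as orange circles and NICD1 as blue squares, with 1 deposited value per point and no error. Psmb8 stands apart at 3.14 and 5.31, while the constitutive catalytic subunits lie between -0.062 and 0.17, and Psme1 and Psme2 lie below 0 with JICD1 and above 0 with NICD1.

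Nlrc5, the class I transactivator, had the largest difference between the constructs. Its deposited log2 ratio was 1.79 in the authors' JICD1 table, 3.45-fold higher than control with a score of 0.64. With NICD1 it was -2.21 in the authors' deposited table, 4.64-fold lower with a score of 0.49, below the ratios of all but 5.35% of genes. The JICD1 ratio minus the NICD1 ratio was 4.0. With JICD1 the Nlrc5 ratio had the sign of all the other members but Tapbp and Psmb10, and with NICD1 it had the sign of H2-D1 and Tap1 alone. The deposited description beside the Nlrc5 ratio is a coding transcript of 2198 bases at chr8:94525067-94527264, which covers 2.37% of the gene's span.

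Differences between the constructs were mixed across the 10 genes. The JICD1 ratio minus the NICD1 ratio was below 0 for 7 genes, from -2.16 for Psmb8 to -0.11 for H2-K1, and it was 0.30 for H2-D1, 1.56 for Tap1 and 4.0 for Nlrc5. Its median over the 10 was -0.33, against 0.04 over the 18182 genes with both ratios, of which 43.7% had the lower value with JICD1. Signs were opposite between the tables for 5 of the 10, namely H2-D1, Tap1, Tapbp, Psmb10 and Nlrc5, where 37.0% of all genes had opposite signs. These differences have no score, and the shared control enters both ratios.

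**Figure D3:**
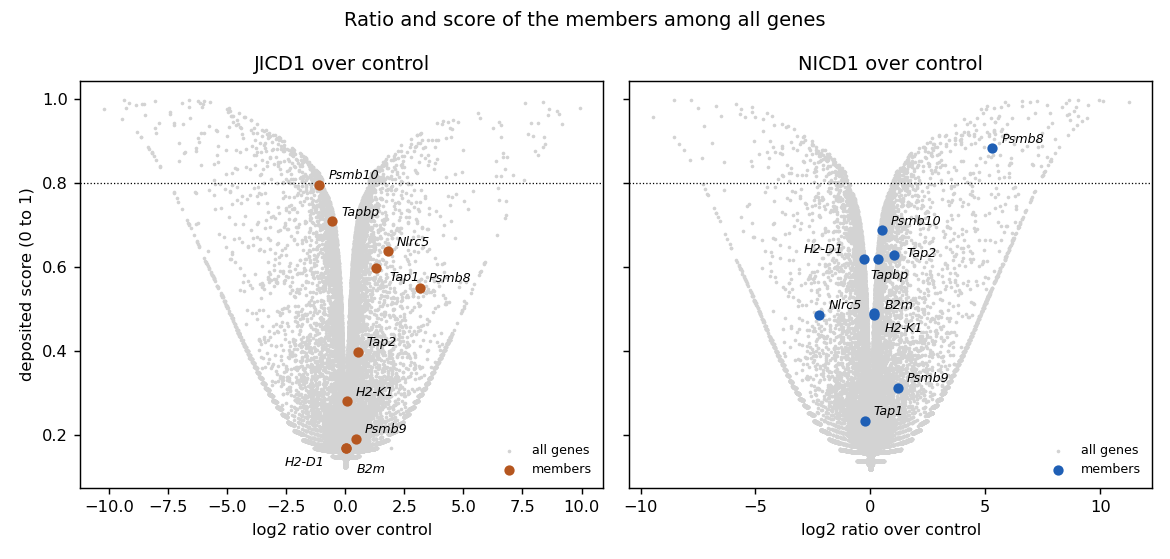
Deposited score against deposited log2 ratio over control for all genes (grey) and the 10 class I presentation genes (coloured), for JICD1 on the left and NICD1 on the right. The dotted line marks a score of 0.8. Psmb8 is the only one of the 10 above it, with NICD1, and Psmb10 lies just under it with JICD1.

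The descriptions in the tables limit what some of these ratios stand for. Only B2m, H2-D1 and Psmb10 carry a gene symbol in the authors' tables, and the other 7 were found by NCBI or Ensembl identifier. Each of those 7 is described by the coordinates of 1 transcript, which match GRCm38 annotation, although the submitters' processing notes name mm9. Psmb8 is described by a retained-intron transcript at chr17:34198609-34201425, which spans 75.4% of the gene. Tap1 and Tapbp are also described by retained-intron transcripts, and H2-K1 and Tap2 by processed transcripts, while Psmb9 and Nlrc5 have coding ones. Noncoding descriptions stood beside 41.0% of all genes for JICD1 and 40.8% for NICD1. Whether a ratio covers the whole gene or that transcript is not given. The strand setting is not given either. Read on either strand, 5.44% of the 50-base words of Tap1 occur in Psmb9 transcripts, and 9.71% of those of Psmb9 in Tap1 transcripts. The RefSeq starts given above lie apart, and where in the annotated transcripts these words lie was not recorded. Other transcripts share 22.4% of the words of Tapbp, 12.1% of those of Tap2 and 5.51% of those of Psmb8, and reads from them cannot be told apart there.

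The remaining heavy chain genes, which include the nonclassical and MHC class I-like ones, mostly lay above 0. Of 28 listed, 20 had a ratio in the authors' deposited JICD1 table, 17 above 0 and 3 below, with a median of 0.46, and 22 had one in the NICD1 table, 17 above and 5 below, with a median of 0.85. Cd1d1, which presents lipids to natural killer T cells, had a deposited log2 ratio of 1.89 with JICD1 and 4.45 with NICD1 in the authors' tables, with scores of 0.40 and 0.82. It was the only scored gene of this list. Mr1, which presents vitamin B metabolites, had 0.68 and 2.04 in the authors' deposited JICD1 and NICD1 tables, with scores of 0.42 and 0.79. H2-T23, which encodes Qa-1, had 0.31 and 1.34 in the authors' deposited JICD1 and NICD1 tables, with scores of 0.31 and 0.72. Fcgrt lay below 0 with both constructs, at -1.56 and -1.98 in the authors' deposited JICD1 and NICD1 tables. Its scores were 0.62 and 0.69, the first being the highest of this list with JICD1. Chaperones and trimming enzymes stayed within 1 of 0, with medians of -0.0052 and 0.16 over 12 genes with JICD1 and NICD1. The highest scores among them in either table belonged to Ganab, a glucosidase subunit that trims glycans on new proteins, and Npepps, a cytosolic aminopeptidase. Ganab had log2 ratios of 0.21 and 0.49 with scores of 0.53 and 0.71 in the authors' deposited JICD1 and NICD1 tables. Npepps had log2 ratios of 0.35 and 0.37 with scores of 0.63 and 0.65 in the authors' deposited tables.

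Genes upstream of class I transcription showed 1 scored value. Of 22 regulators, 11 lay above 0 and 11 below in the authors' deposited JICD1 table, with a median of -0.016. With NICD1, 21 had a ratio, 12 above 0 and 9 below, with a median of 0.06. Irf1, an interferon-induced factor that activates class I and proteasome genes, stood at -1.43 on the log2 scale in the authors' deposited JICD1 table and at 0.22 in their NICD1 table, with scores of 0.83 and 0.53. The next highest scores in either table were those of Nfkb1, the NF-kB subunit p50, and Rfxap, a subunit of the factor that binds the X box. Nfkb1 had log2 ratios of 0.64 and 0.20 with scores of 0.74 and 0.51 in the authors' deposited JICD1 and NICD1 tables. Rfxap had log2 ratios of 0.82 and -0.37 with scores of 0.72 and 0.53 in the authors' deposited tables. Of 10 interferon receptor, kinase and interferon genes with a ratio, 8 lay below 0 with JICD1 and 5 with NICD1, with medians of -0.37 and -0.014. Ifngr1, a chain of the interferon gamma receptor, had -0.48 and -0.086, and Tyk2, a kinase of interferon receptors, had -0.69 and -0.75, in the authors' deposited JICD1 and NICD1 tables.

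MHC class II genes, which present peptides to CD4 T cells on specialised cells, had few usable ratios. Of 8 listed, 4 had one with JICD1 and 6 with NICD1, with medians of -0.57 and 1.69 in the authors' deposited tables. A position on the edge of the plot of score against ratio, where a group was inferred to be at a common floor, was held by 1 of the 4 and by 3 of the 6. Without them the medians were -1.18 with JICD1 and 0.11 with NICD1. Cd74, the invariant chain, had deposited log2 ratios of -1.64 and 1.37 in the authors' JICD1 and NICD1 tables, with scores of 0.29 and 0.38. H2-DMb1, a chain of the class II peptide editor, had -1.18 and -3.76 in the authors' deposited JICD1 and NICD1 tables and lies next to Psmb9 on the chromosome.

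Neighbours of the class I genes did not share the high ratio of Psmb8. Psmb9, Tap1, Psmb8 and Tap2 follow one another on chromosome 17. Along the stretch from 4 genes before Tapbp to 4 genes after Tap2, 19 of the 24 genes that are no members had a ratio with JICD1 and 21 had one with NICD1. With JICD1, 15 of them lay above 0 and 4 below in the authors' deposited table, with a median of 0.13 and none scored. Their log2 ratios ran from -2.14 to 1.95, the highest being that of a gene with a group inferred at a common floor. With NICD1, 15 lay above 0 and 6 below in the authors' deposited table, with a median of 0.12 and none scored. There the log2 ratios ran from -3.76 to 2.94, the highest again being that of a gene with a group inferred at a common floor. Medians over all genes of chromosome 17 were 0.07 with JICD1 and 0.0046 with NICD1, from 806 and 830 genes.

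**Figure D4:**
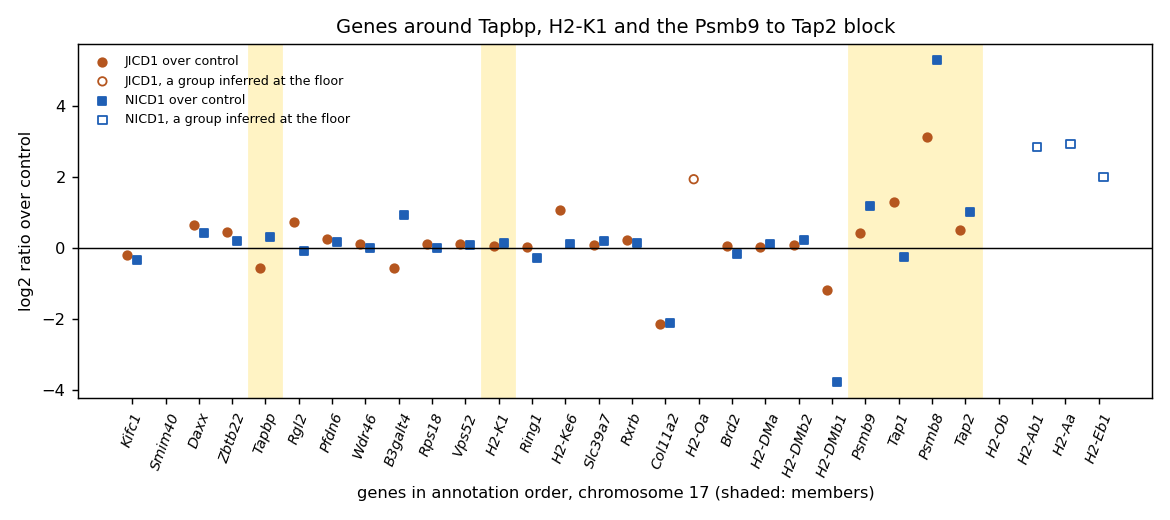
Log2 ratio over control in the authors' deposited tables for genes in annotation order around Tapbp, H2-K1 and the Psmb9 to Tap2 block on chromosome 17, JICD1 as circles and NICD1 as squares. Shading marks class I presentation genes, and open symbols mark genes with a group inferred at a common floor. Psmb8 stands highest at 3.14 and 5.31, between Tap1 at 1.31 and -0.25 and Tap2 at 0.51 and 1.03.

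Cell type markers lay on both sides of 0, and their part in the class I values was not tested. In bulk RNA, fewer cells of a type and less RNA per cell cannot be told apart. Astrocyte markers tended to lie below 0, with 7 of 11 below with JICD1 and 8 of 11 with NICD1, and medians of -0.72 and -0.50 in the authors' deposited tables. Sox9, a glial transcription factor, had -0.84 and -1.64, Gja1, the gap junction protein connexin 43, had -0.59 and -0.50, Glul, glutamine synthetase, had -0.72 and -0.12, and Aldh1l1, a folate enzyme, had -0.85 and -0.89 in the authors' deposited JICD1 and NICD1 tables. Sox9 with NICD1 was the only scored value of this list, at 0.85. Gfap, the astrocyte filament protein, had -1.36 and -1.52 with scores of 0.24 and 0.26 in the authors' deposited JICD1 and NICD1 tables, and Aqp4, the astrocyte water channel, had no ratio in either. The tables give no levels, so how strongly the control cultures expressed these markers is unknown. Microglia and macrophages carry much MHC class I and Psmb8. Of 14 of their markers, 10 had a ratio in each table, 3 above 0 with JICD1 and 9 above 0 with NICD1, with median log2 ratios of -0.36 and 0.62 in the authors' deposited tables, the JICD1 median being -0.12 without the 1 gene inferred at the floor. By log2 ratio, Tmem119 was at -8.48 with JICD1, the only scored one, and at -1.36 with NICD1, and P2ry12 was at -2.79 and 2.07 in the authors' deposited tables. Aif1 was at 0.96 in the authors' deposited NICD1 table, and in the JICD1 table a group was inferred at the floor. Of 6 endothelial markers with a ratio in each table, 4 lay above 0 and 2 below with either construct, and none was scored. Their median log2 ratios were 0.83 with JICD1 and 1.00 with NICD1. By log2 ratio, Flt1 had 0.48 and 1.70, Kdr had 3.10 and 3.18, and Cdh5 had -1.83 and 2.50 in the authors' deposited JICD1 and NICD1 tables. Scores in the same order were 0.38 and 0.78 for Flt1, 0.31 and 0.33 for Kdr, and 0.21 and 0.42 for Cdh5. Fibroblast and pericyte markers had median log2 ratios of -2.17 over 7 genes with JICD1 and -0.58 over 8 with NICD1, or -1.68 and -1.23 without the 1 gene in each inferred at the floor. Of these markers 4 were scored lower with JICD1, while 2 were scored higher and 1 lower with NICD1. By log2 ratio, Pdgfrb had -2.17 and 0.083, Col1a1 had -1.19 and 1.74, Col1a2 had 0.92 and 1.80, and Anpep had -3.79 and -1.86 in the authors' deposited JICD1 and NICD1 tables. Dcn was at -5.08 in the authors' deposited NICD1 table, and in the JICD1 table a group was inferred at the floor.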

How the data were processed

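Total RNA was extracted with TRIzol and sequenced by BGI, per the labels' protocols, which also mention a methylated-DNA enrichment kit. The submitters' processing notes list Bowtie2, BWA and mm9, without version or role. The counting, the strand setting, the way the 3 libraries of a group were combined and the scoring method are steps whose details are not given in the sources used here. Per the file headers, the authors deposited 1 log2 ratio of transfected over control per gene in each of 2 tables. The authors deposited with it a score from 0 to 1, named Probability in the file headers. There were 0 unused numeric columns. Depth is unknown.

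A test on values per library was planned only if the tables held them, and they do not. Genes were counted at a score of 0.8 or more, and at a log2 ratio of 1 or more or of -1 or less, as descriptions. The 10 genes, the lists and these thresholds were chosen with earlier results of these data known. Named were all 10 genes, and from each pathway list at most 4 genes scored 0.8 or more, by absolute ratio, with those of the highest score where fewer than 2 were scored. From each marker list up to 3 genes with the highest score in each table were named. One gene that this rule names is not reported here. Psmb6 was added as the partner of Psmb9, Gfap and Aqp4 as defining astrocyte markers after their values were seen, and Jag1 and Notch1 as genes of the constructs. Fcgrt was also added after its values were seen, as the gene with the highest JICD1 score of its list. A common floor was inferred from 694 genes with an equal negative ratio in both tables, within 1e-06. Only values with an absolute log2 ratio of 1 or more were checked for it. Of these, genes within 0.002 of the score curve of those genes, or within 0.01 above an absolute log2 ratio of 6, were inferred to be at that floor in one group and get no fold. None of the checked values of the 10 lay on that curve. B2m, H2-K1, H2-D1 and Tapbp were below 1 in both tables, so the curve says nothing on them.

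Symbols came from the tables, NCBI and GENCODE vM21 on GRCm38, which named 18681 genes of the JICD1 table and 18998 of the NICD1 table. Gene order came from RefSeq, shared 50-base words from GENCODE vM21, and promoter windows from RefSeq on GRCm38.p6. The windows end 50 bases after the start, and those bases were left out. Counting, medians and the floor inference were run on simulated data, and the motif steps were not. Python 3.11.15, pandas 2.3.3, numpy 2.4.6 and matplotlib 3.10.9 were used.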

Additional observations from a re-analysis of the deposited data

How the results depend on the processing

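Counts and medians over 10 genes depend on few values. At an absolute log2 threshold of 2, the 3 genes higher with JICD1 became 1, the 1 lower became 0, and the 3 higher with NICD1 became 1. A score threshold of 0.7 gave 2 scored lower genes with JICD1 in place of 0, and a threshold of 0.9 gave 0 scored higher genes with NICD1 in place of 1. The shares of all genes past these other thresholds were not computed, so these counts cannot be set against a background. Without H2-K1 and H2-D1 the median was 0.47 with JICD1 and 0.40 with NICD1. Leaving out 1 gene gave a JICD1 median of 0.43 (B2m, H2-K1, H2-D1, Tapbp or Psmb10) or 0.057 (Tap1, Tap2, Psmb8, Psmb9 or Nlrc5). The 3 genes with a symbol in the tables had a JICD1 median of 0.011. Which genes enter sets each of these medians by construction. Subtracting the median of all genes or of the chromosome moved each of 40 recomputed values by at most 0.069 on the log2 scale. The sign turned for B2m, H2-K1 and H2-D1 with JICD1, as given with their values. With no replicate spread to judge by, a median was taken as moved when it shifted by 0.1 or more. Leaving out genes inferred at the floor moved 6 of 24 list medians, with JICD1 to -1.18 for class II, -0.12 for microglia and -1.68 for fibroblasts, and with NICD1 to 0.11 for class II, -1.23 for fibroblasts and 0.15 for proteasome activators. No paired analysis was possible because values per library are not in the 2 tables, which give 1 ratio for each gene. For the same reason no library could be left out and no other normalization was run.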
